A study of Homo sapiens with 6 samples.

Results

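Keratins are the intermediate filament proteins of epithelial cells, and 10 of their genes are described here in HCT116, a human colorectal carcinoma cell line, after CRISPR knockout of the membrane mucin MUC3A. They are 5 keratins typical of simple, single-layered epithelium (KRT7, KRT8, KRT18, KRT19 and KRT20) and 5 typical of stratified or transitional epithelium (KRT5, KRT13, KRT15, KRT17 and KRT80). They were chosen by name, with their fold changes between the knockout and control libraries already in view, so those differences are given as a description with no test. Of the 10 genes, 9 were in both gene tables, among 15284 genes shared by these, and 9 were among the 12678 genes tested. KRT20, a keratin of differentiated intestinal cells, was not analysed here. KRT5 and KRT17 passed the filter on low counts only through knockout libraries, so they could enter only by being higher there.

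Keratin filaments are built from pairs: an acidic type I keratin (here KRT13, KRT15, KRT17, KRT18 and KRT19) assembles with a basic type II keratin (here KRT5, KRT7, KRT8 and KRT80). KRT8 with KRT18 is the founding pair of simple epithelia, with KRT19 beside it in the intestine and KRT7 in ducts and transitional linings. KRT5 and KRT15 mark the basal layer of stratified epithelium, KRT13 the layers above it in mucosa, KRT17 injured skin and skin appendages, and KRT80 differentiating epithelial cells.

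The series holds poly(A) RNA-seq of 3 groups of 2 libraries each: WT, KO1 and KO2. KO1 and KO2 are HCT116 lines made with lentivirus from the lentiCRISPR v2 vector, which carries Cas9 and 1 of 2 guides against MUC3A (multiplicity of infection 10). Infected cells were then selected for 72 h in puromycin, 2 µg/mL. WT is labelled wild type and also negative control. The protocol describes a scrambled lentivirus for a control line and the design text describes wild-type cells, so whether WT cells carried a vector is not settled by the labels. The labels do not say whether a line was a pool or a clone, nor whether libraries of 1 group were grown as separate cultures. The spread between libraries may thus be technical. Within each group, 1 library is named HCT and the other HCT116. The labels do not explain these names. Below, the 3 libraries with each name form a set, the HCT set or HCT116 set, and each knockout library was set beside the WT library of its own set. Unless the term for the set is left out, p-values measure only the spread that remains after terms for group and set. They do not measure the whole difference between the 2 libraries of a group. The guides are printed because the keratins differed between them (5′ to 3′, as the labels give them, not placed on the genome here).
KO1: gaaggcaaacttggacgtcg
KO2: ttctccacactccagagacc

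Total counts ran from 13638724 to 17830282 per library. MUC3A, in CPM (read counts scaled to library size), stood at 52.7 (HCT set) and 25.1 (HCT116 set) in WT, at 52.9 and 28.6 in KO1, and at 30.0 and 24.6 in KO2. KO2 was below WT in the HCT set only, and was not called (log2 -0.43 ± 0.19, adjusted p = 0.237, edgeR). MUC3A thus checks neither the KO1 nor the KO2 labels by its transcript level. A small deletion in a coding exon need not change it. Epithelial identity was checked on 10 marker genes of colorectal epithelium, of which 3 were tested. EPCAM, the epithelial adhesion molecule, ran from 219 to 289 CPM, and CDX2 and CDH1 were present too, while LGR5 and VIL1 had at most 3 reads in each library. CDX1, CDH17 and GPA33 were low as well, with at most 1, 7 and 11 reads in a library. Only 8 of the 10 were in both gene tables, so most of the colorectal list was low or not measured. Fibroblast markers summed to between 35.4 and 67.5 CPM, nearly all of it COL1A1, and leukocyte markers to between 0.708 and 2.71 CPM.

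Within a library, gene levels were compared as CPM per kilobase of annotated exons (GENCODE release 29, the exons of a gene merged). KRT19, KRT8 and KRT18 held the top 3 places in each of the 6 libraries, and together made up between 96.9% and 99.3% of the summed level of the 9 keratins. KRT19, a type I keratin of glandular epithelium, stood at 744 CPM per kilobase in the HCT-set WT library and 869 in its HCT116-set counterpart. KRT8, the type II keratin of simple epithelium, stood at 459.5 and 626, and KRT18, its type I partner, at 329.9 and 512. The WT ranges of KRT8 and KRT18 overlapped, and neither overlapped that of KRT19.

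The other keratins of WT lay far below. KRT7, the ductal type II keratin, stood at 3.36 and 8.67 CPM per kilobase, KRT80 at 3.74 and 5.91, and KRT15 at 2.69 and 4.51. These 3 ranges overlapped. KRT15 was the lowest of the 3 in each WT library, while KRT7 and KRT80 changed places between the sets, so the order of those is not resolved. Below them came KRT13 at 0.849 and 1.51 CPM per kilobase. KRT5 (0.0758 and 0.0733) and KRT17 (0.0208 and 0.0754) were at the bottom and changed places between the sets. WT cells thus had a simple keratin makeup in these tables, with traces of the stratified keratins.

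KRT13 took a higher place in KO1 than in WT, above KRT15 in the HCT-set library at 6.72 CPM per kilobase and above KRT7, KRT80 and KRT15 in the HCT116-set library at 50.04. In KO2 the order below KRT18 was different. KRT15 came next at 5.22 and 13.4 CPM per kilobase, followed by KRT13 at 3.18 and 6.33 and KRT80 at 3.12 and 2.97. KRT7 was behind KRT5 in both KO2 libraries, at 0.614 and 1.35 CPM per kilobase against 1.11 and 1.46 for KRT5. Only in the HCT116-set WT library was KRT17 not last of the 9.

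Lengths bear on this order. Where the longest annotated transcript replaced the merged exons, an alternative chosen after seeing the data, 9 of 9 genes kept their place in the HCT-set KO1 and KO2 libraries and between 5 and 7 in the other 4. KRT8 then came before KRT19 in the HCT116-set libraries of WT and KO1, and KRT7 changed places with KRT80, KRT13 or KRT5 in 3 libraries.

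**Figure D1:**
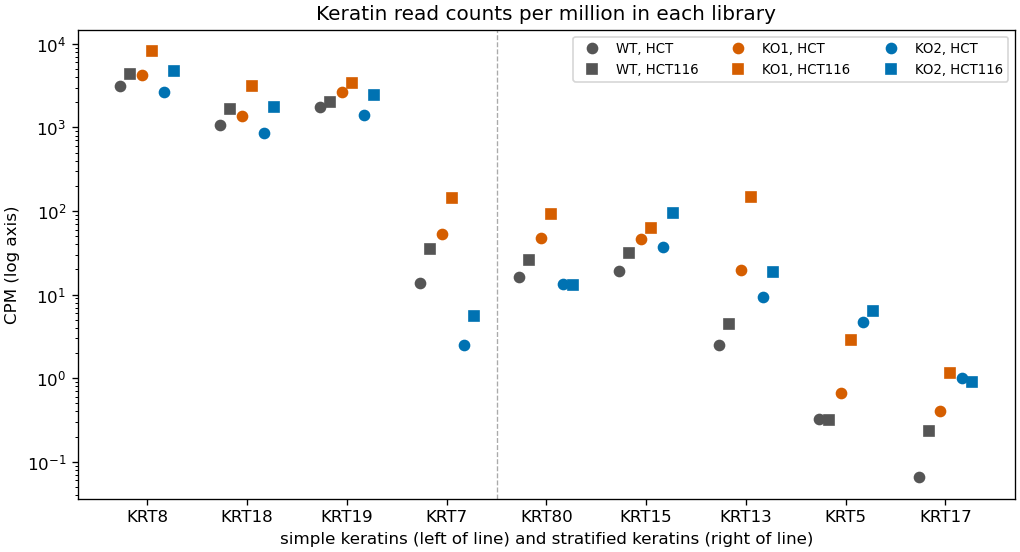
CPM (log axis) of the 9 keratins in each of the 6 libraries, coloured by group, with the marker showing the HCT or HCT116 set. KRT8, KRT18 and KRT19 sit above 800 CPM in each library, while KRT5 and KRT17 sit below 10, and the KRT7 points of KO1 and KO2 lie on opposite sides of WT.

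The plot of keratin levels by library shows 3 kinds of pattern among the keratins: a modest difference in KO1 (KRT8, KRT18, KRT19), opposite differences in KO1 and KO2 (KRT7 and KRT80), and higher levels with both guides (KRT5, KRT13, KRT15 and KRT17). All ratios to WT below use the control shared by both guides, so a high or low WT library moves both. In such bulk RNA, more cells that express a keratin and more keratin RNA per cell cannot be told apart.

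Among the simple keratins, KRT8 stood at 3162 CPM (HCT set) and 4307 CPM (HCT116 set) in WT, at 4282 and 8139 in KO1, and at 2618 and 4697 in KO2. KRT18 stood at 1061.5 and 1649 CPM in WT, at 1370.4 and 3156 in KO1, and at 849 and 1742 in KO2. KRT19 stood at 1737 and 2029 CPM in WT, at 2673 and 3370.0 in KO1, and at 1398 and 2475 in KO2. For all 3 genes the HCT116-set KO1 library was the highest of the 6 and the HCT-set KO2 library the lowest. Both KO1 libraries were above both WT libraries for KRT19 only, and KO2 overlapped WT for all 3.

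Fitted over the 2 sets (log2 fold change ± SE), KO1 differed from WT by 0.67 ± 0.17 in KRT8, 0.65 ± 0.16 in KRT18 and 0.67 ± 0.17 in KRT19, or 1.59-fold, 1.57-fold and 1.60-fold higher. Set by set, the KO1 to WT log2 ratio of KRT8 was 0.44 (HCT) and 0.92 (HCT116), that of KRT18 was 0.37 and 0.94, and that of KRT19 was 0.62 and 0.73. In KO2 the fitted log2 fold changes were -0.08 ± 0.17 for KRT8, -0.13 ± 0.16 for KRT18 and -0.01 ± 0.17 for KRT19. These 3 values rest on ratios of opposite sign. In the HCT set KO2 was below WT by log2 ratios of -0.27, -0.32 and -0.31, and in the HCT116 set above it by 0.13, 0.08 and 0.29. With 1 library per guide and set, that difference between the sets was not tested.

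The ratio of KRT8 to KRT18 in CPM per kilobase was between 1.39 and 1.46 in the 3 libraries of the HCT set, but between 1.21 and 1.26 in the 3 of the HCT116 set. KRT19 relative to KRT18 ran from 2.25 to 2.69 in the HCT set, while the HCT116 set gave 1.47 to 1.96. For both ratios the sets did not overlap. Of the 50-base stretches of KRT8 transcripts 16.1% also occur in transcripts of other genes, and of those of KRT18 24.5%. KRT8 and KRT18 share 12.7% of the stretches of KRT18, so their counts may not be independent.

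KRT7 was the simple keratin with the widest range. Its WT libraries (HCT set, then HCT116 set) had 211 and 451 reads, the KO1 libraries 789 and 1873, and the KO2 libraries 48 and 80. This is 13.7 and 35.5 CPM for WT, 52.9 and 145 for KO1, and 2.51 and 5.53 for KO2. The 3 groups did not overlap: each KO1 library was above both WT libraries and each KO2 library below both. The fitted log2 fold change was 1.99 ± 0.15 in KO1 (3.97-fold higher) and -2.58 ± 0.17 in KO2 (5.98-fold lower). The ratios were alike in the sets, with log2 values of 1.93 and 2.02 for KO1, -2.39 and -2.65 for KO2. Between the 2 guides KRT7 differed by -4.57 ± 0.17 for KO2 against KO1, a level 23.7-fold lower in KO2. Of the 50-base stretches of KRT7 transcripts, 5.70% also occur in transcripts of other genes, nearly all in its antisense gene KRT7-AS, and the use of strand in counting is not stated.

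KRT80, a type II keratin of differentiating stratified and glandular cells whose gene lies beside KRT7, followed KRT7 in part. It stood at 16.3 and 25.7 CPM in WT, at 47.6 and 92.6 in KO1, and at 13.6 and 12.9 in KO2. Both KO1 libraries were above both WT libraries and both KO2 libraries below, though the HCT set of KO2 lay close to the HCT set of WT. The fitted log2 fold change was 1.71 ± 0.21 in KO1 (3.28-fold higher) and -0.60 ± 0.22 in KO2 (1.52-fold lower), and KO2 against KO1 gave -2.31 ± 0.22. KO2 to WT log2 ratios were -0.26 (HCT set) and -0.99 (HCT116 set). The ratio of KRT7 to KRT80 in CPM per kilobase was 0.897 and 1.47 for WT, 1.18 and 1.66 for KO1, and 0.197 and 0.455 for KO2, so KRT7 was the lower of the pair in both KO2 libraries.

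**Figure D2:**
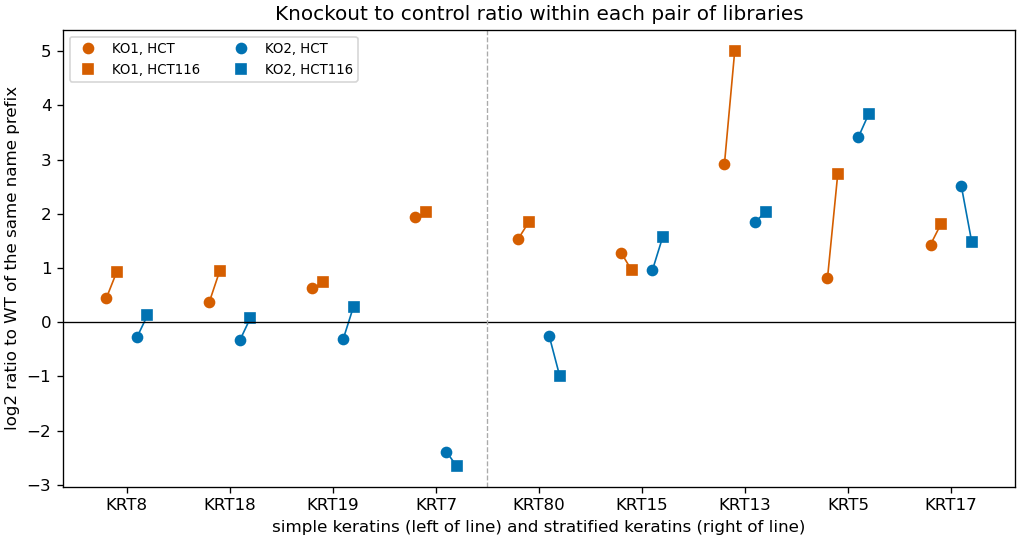
Log2 ratio of each knockout library to the WT library of its own set, on log2 CPM with a prior count of 2, for the 9 keratins and both guides. KRT7 lies at about 2 in KO1 and below -2 in KO2 in both sets, KRT13 spreads from 2.92 to 5.01 in KO1, and the KO2 points of KRT8, KRT18 and KRT19 fall on both sides of 0.

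KRT13, the type I keratin of the upper layers of mucosal epithelium, showed the highest fold of the stratified keratins in KO1. WT libraries had 38 and 56 reads, KO1 libraries 292 and 1886, and KO2 libraries 177 and 267. This is 2.47 and 4.40 CPM for WT, 19.6 and 146 for KO1, and 9.26 and 18.4 for KO2. All 4 knockout libraries were above both WT libraries, and the HCT116-set KO1 library stood far above the other 5. The fitted log2 fold change was 4.22 ± 0.43 in KO1 and 2.07 ± 0.45 in KO2 (4.19-fold higher). Log2 ratios were 2.92 and 5.01 for KO1 but 1.85 and 2.03 for KO2, so the size in KO1 depended on the set. Without the HCT116-set KO1 library the KO1 value was 3.02, without the HCT-set KO1 library 5.00, and without the HCT116-set WT library 3.51. The KO2 value was 2.96 without the HCT116-set KO2 library and 1.42 without the HCT116-set WT library. Of the 50-base stretches of KRT13 transcripts 12.6% also occur in the gene AC019349.1, so part of the count is uncertain.

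KRT5, the type II keratin of basal cells, had 5 and 4 reads in the WT libraries, 10 and 37 for KO1, and 91 and 91 for KO2. In CPM it stood at 0.325 and 0.315 in WT, at 0.670 and 2.86 in KO1, and at 4.76 and 6.29 in KO2. The groups did not overlap, with KO2 the highest, the reverse of the order seen for KRT13. Summed over the sets, KO1 was 5.26-fold above WT and KO2 16.9-fold, while in the HCT set alone the KO1 ratio was 2.06. The fitted log2 fold change was 2.29 ± 0.64 in KO1 and 4.08 ± 0.56 in KO2. Leaving out the HCT116-set KO1 library took the KO1 value to 1.18, leaving out the HCT-set KO1 library to 2.96, and leaving out the HCT116-set KO2 library the KO2 value to 4.69. The ratio of KRT13 to KRT5 in CPM per kilobase was 11.2 and 20.6 for WT, 43.02 and 75.1 for KO1, and 2.87 and 4.32 for KO2.

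KRT15, the type I keratin of basal cells, was the best measured of the stratified set, with 292 and 405 reads in the WT libraries, 688 and 800 for KO1, and 705 and 1369 for KO2. It stood at 19.0 and 31.9 CPM in WT, at 46.1 and 61.8 in KO1, and at 36.9 and 94.6 in KO2. All 4 knockout libraries were above both WT libraries, and KO1 and KO2 overlapped. The fitted log2 fold change was 1.13 ± 0.20 in KO1 (2.19-fold higher) and 1.29 ± 0.20 in KO2 (2.44-fold higher). KO2 against KO1 gave 0.16 ± 0.19, and the sets ordered the guides differently: the log2 ratio for KO1 was 1.27 (HCT) and 0.95 (HCT116), against 0.95 and 1.57 for KO2.

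KRT17, a type I keratin induced in injured skin, was near the detection limit, with 1 and 3 reads in the WT libraries, 6 and 15 for KO1, and 19 and 13 for KO2. A count of 3 is between 0.157 and 0.236 CPM in these libraries. Summed over the sets, KO1 was 5.29-fold above WT and KO2 6.69-fold, both against 4 reads in all. The fitted log2 values were 2.31 ± 0.88 in KO1 and 2.71 ± 0.83 in KO2. They moved to between 1.51 and 3.08 in KO1, and between 1.94 and 3.63 in KO2, where 1 library was left out. Of its 50-base stretches 9.02% occur in other genes, most of them in the pseudogene KRT17P1.

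Over the 9 keratins, both KO1 libraries were above both WT libraries for 7 (all but KRT8 and KRT18) and below for 0. Among all tested genes these shares were 6.86% and 5.71%. Both KO2 libraries were above both WT libraries for 4 (KRT5, KRT13, KRT15 and KRT17) and below for 2 (KRT7 and KRT80), where all genes gave 11.9% and 8.48%. The edgeR calls at an adjusted p of 0.05 were 4 higher and 0 lower in KO1 (KRT7, KRT13, KRT15 and KRT80), beside a background of 0.678% of genes higher and 0.347% lower. In KO2 they were 3 higher (KRT5, KRT13 and KRT15) and 1 lower (KRT7), beside 2.15% higher and 2.47% lower. KO2 against KO1 gave 1 higher (KRT5) and 6 lower (all 4 simple keratins, KRT13 and KRT80), beside 4.24% higher and 5.39% lower. The genes were picked on these same contrasts, so nothing is read from the counts. Without the term for the set, 0 keratins were called in each of these 3 comparisons.

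The median log2 fold change of the 4 simple keratins was 0.67 in KO1 and -0.11 in KO2, and that of the 5 stratified keratins 2.29 in KO1 and 2.07 in KO2. Over all tested genes it was 0.0012 in KO1 and -0.00013 in KO2. The 2 stratified keratins with few WT reads raise the stratified median, and KRT80 and KRT15, which had at least 250 reads in each WT library, lay at 1.71 and 1.13 in KO1.

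Summed as CPM per kilobase, the 5 stratified keratins stood at 7.37 and 12.1 in WT, at 24.5 and 81.1 in KO1, and at 12.9 and 24.4 in KO2. All 4 knockout libraries were above WT. Their share of the 9 keratins was 0.478% and 0.596% for WT, 1.10% and 2.18% for KO1, and 1.03% and 1.06% for KO2. KRT13 carried 50.04 of the 81.1 CPM per kilobase in the HCT116-set KO1 library, and KRT15 was the largest part of the sum in both KO2 libraries. The stratified keratins thus remained a small fraction of keratin RNA with either guide.

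**Figure D3:**
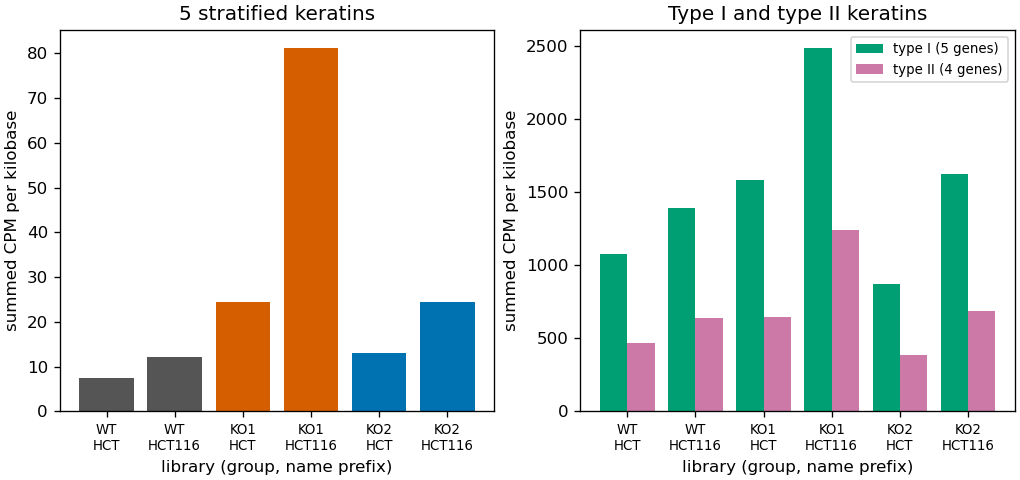
Left, summed CPM per kilobase of the 5 stratified keratins in each library, and right, the same of the 5 type I and 4 type II keratins. The stratified sum is highest in the HCT116-set KO1 library at 81.1 CPM per kilobase, and type I exceeds type II in each of the 6 libraries.

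Since filaments pair the types, the type I and type II sums were compared too. Type I keratins summed to 1077 and 1387 CPM per kilobase for WT, 1584 and 2483 for KO1, and 871 and 1621 for KO2. Type II keratins summed to 467 and 641 for WT, 646 and 1240.1 for KO1, and 385 and 688 for KO2. The ratio of type I to type II lay between 2.00 and 2.45 in the 6 libraries, with WT at 2.31 and 2.17 inside the range of the knockouts. With the longest transcript as the length it lay between 1.36 and 1.69. The ratio was set by KRT19, KRT8 and KRT18. As a share of all reads, the 9 keratins took 0.645% and 0.753% in the WT libraries, 0.882% and 1.43% for KO1, and 0.529% and 0.858% for KO2.

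The comparison of the HCT116 set with the HCT set did not enter the choice of genes, and it was tested with the group as a term. It uses the same libraries as that choice, so it is not independent of it. All 9 keratins had a positive log2 fold change, and edgeR's quasi-likelihood test called 7 higher and 0 lower. The background was high: 31.8% of all tested genes were called higher and 32.1% lower. The median over the 9 keratins was 0.85, in the simple and in the stratified keratins alike, against -0.02 over all tested genes.

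KRT13 was 3.46-fold higher in the HCT116 set (log2 1.79 ± 0.33, adjusted p = 0.000668, edgeR) and KRT7 2.56-fold (log2 1.36 ± 0.13, adjusted p = 1.01e-05, edgeR). The abundant pair followed: KRT18 was 1.94-fold higher (adjusted p = 8.29e-05, edgeR) and KRT8 1.67-fold (adjusted p = 0.000676, edgeR). KRT15 was 1.80-fold higher (adjusted p = 0.000775, edgeR), KRT80 1.47-fold (adjusted p = 0.0165, edgeR) and KRT19 1.38-fold (adjusted p = 0.0121, edgeR). KRT5 (log2 0.87 ± 0.41, adjusted p = 0.0816) and KRT17 (log2 0.67 ± 0.58, adjusted p = 0.326) did not pass in edgeR. KRT5 passed without the HCT-set WT library (log2 0.99) and without the HCT-set or HCT116-set KO2 library (log2 1.52 and 1.54).

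**Figure D4:**
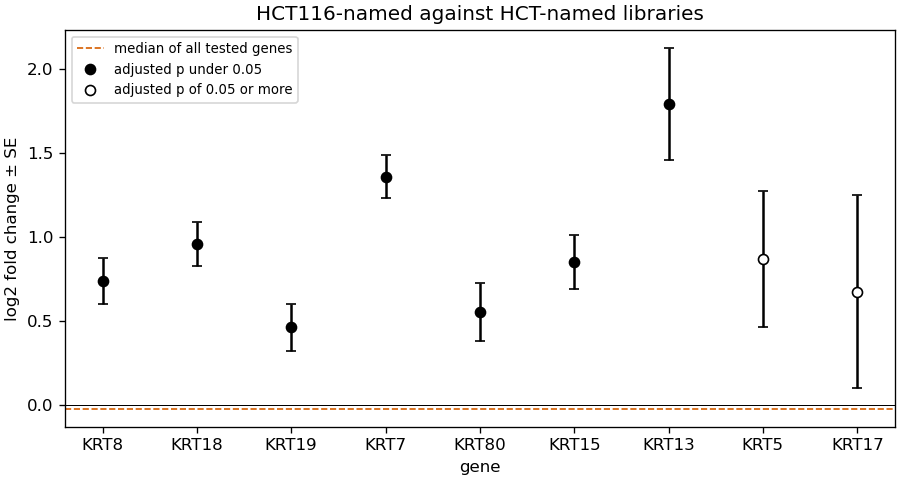
Log2 fold change ± SE of each keratin between the HCT116 set and the HCT set, 3 libraries each, fitted with the group as a term, with filled points for an adjusted p under 0.05 and a dashed line at the median of all tested genes. All 9 points lie above 0, from 0.46 for KRT19 to 1.79 for KRT13.

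The difference between the sets was in the same direction in every group for KRT7, with HCT116 to HCT ratios of CPM of 2.58 in WT, 2.74 in KO1 and 2.20 in KO2. KRT8 (1.36, 1.90 and 1.79), KRT18 (1.55, 2.30 and 2.05), KRT19 (1.17, 1.26 and 1.77) and KRT15 (1.68, 1.34 and 2.56) were also above 1 in each. On few reads, KRT5 was below 1 in WT (0.967, 4.27 and 1.32) and KRT17 in KO2 (3.63, 2.88 and 0.903). For KRT13 the difference between the sets rested largely on KO1, with ratios of 1.78, 7.45 and 1.99. Leaving out the HCT-set or the HCT116-set KO1 library lowered the log2 value of KRT13 from 1.79 to 0.94 or 0.95, and leaving out a KO2 library raised it to 2.48 or 2.49. KRT80 had ratios of 1.58, 1.95 and 0.953, and was not called without the HCT-set KO1 library (log2 0.31) or the HCT116-set KO1 library (log2 0.33). KRT19 was not called without the HCT116-set KO2 library (log2 0.31). Without the group term only KRT8 and KRT18 were called.

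All 9 keratins lie in the keratin gene clusters, type II with KRT18 on chromosome 12 and the other type I on chromosome 17 (gene order from RefSeq, GRCh38.p14). On chromosome 12 the tested keratins follow each other as KRT80, KRT7, KRT86, KRT81, KRT5, KRT4, KRT8 and KRT18. The neighbours KRT80, KRT7, KRT86 and KRT81 were all higher than WT in KO1 and lower in KO2 in the fit. KRT86 and KRT81, hair keratins, had log2 fold changes of 1.43 ± 0.46 and 1.56 ± 0.44 in KO1 and of -0.99 ± 0.56 and -1.75 ± 0.56 in KO2, and none of these 4 passed the edgeR test. KRT81 stood at 0.325 and 4.25 CPM in WT, at 2.55 and 8.58 in KO1, and at 0.262 and 0.898 in KO2. KRT81 and KRT86 share 37.6% of the 50-base stretches of KRT81, so their counts are not independent. KRT5, next in order, did not follow this pattern. The tested genes flanking the cluster, ATG101 (log2 -0.12 in KO1 and 0.11 in KO2) and EIF4B (0.10 and -0.16), lay near 0.

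On chromosome 17 the order is KRT222, KRT10, KRT38, KRT32, KRT36, KRT13, KRT15, KRT19, KRT16 and KRT17. KRT16, a stress keratin of the epidermis, had 1.50 ± 0.48 in KO1 and 1.02 ± 0.49 in KO2, and the hair keratins KRT38 (3.60 ± 0.97 and 2.90 ± 1.04) and KRT36 (2.50 ± 1.02 and 2.43 ± 1.02) rest on at most 3 reads in a WT library and passed the filter only through knockout libraries. KRT10, the keratin of upper epidermis and the most abundant of the remaining keratins, was near 0 with both guides (-0.06 and -0.17), as were the flanking genes SMARCE1 (0.13 and 0.26) and EIF1 (0.10 and -0.02). KRT13 and KRT15, direct neighbours, differed in fold in KO1 but were alike in direction.

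**Figure D5:**
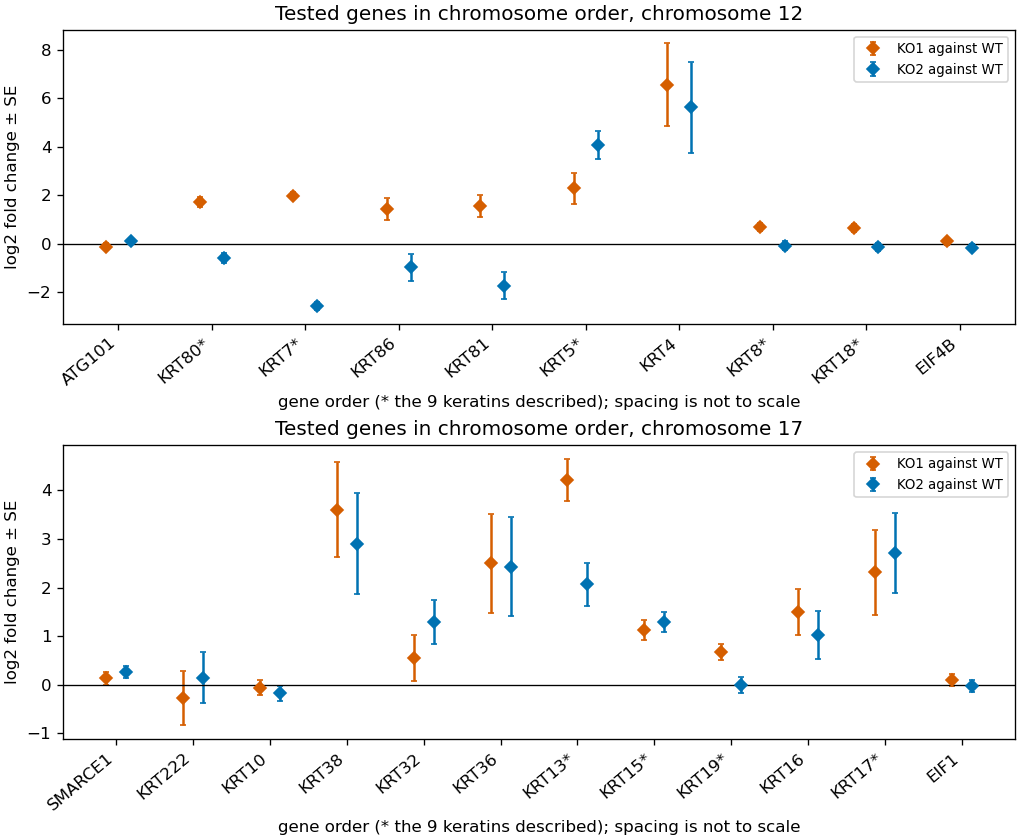
Log2 fold change ± SE against WT for the tested genes of the 2 keratin clusters and their flanking genes, in chromosome order (spacing not to scale), for KO1 and KO2. On chromosome 12 KRT80, KRT7, KRT86 and KRT81 are above 0 in KO1 and below 0 in KO2, and on chromosome 17 KRT13 stands at 4.22 in KO1.

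Of 45 other keratin genes listed, 23 were in both tables, 11 had at least 10 reads in some library (KRT3, KRT4, KRT9, KRT10, KRT16, KRT32, KRT36, KRT38, KRT81, KRT86 and KRT222) and 9 of these were tested. Of the 9, KRT4, KRT36 and KRT38 passed the filter on low counts only through knockout libraries, so they could only be higher there. edgeR called 0 of the 9 in either comparison, with 6 and 5 at an unadjusted p under 0.05, and 3 and 0 without the term for the set. Of all tested genes 8.85% in KO1 and 19.4% in KO2 were at such a p, and because of those 3 genes nothing is read from the counts of 6 and 5. KRT4, the type II partner of KRT13 in mucosa, had 0 reads in WT, 21 in KO1 and 14 in KO2, summed over the sets. By set (HCT, then HCT116) these were 7 and 14 in KO1 but 1 and 13 in KO2. Against a floor of 3 counts over the WT group the sum was at least 7.05-fold higher in KO1 and at least 3.90-fold higher in KO2. The KO2 value rests on the HCT116-set library. Between the sets 5 of the 9 were called higher in the HCT116 set and 0 lower, where 31.8% of all tested genes were called higher and 32.1% lower. KRT10, among the 5, was at 20.2 and 54.4 CPM in WT.

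The genes that regulate or accompany keratins were taken from lists written with earlier results of these data known. All calls on them in the knockout comparisons were lost without the term for the set, where edgeR called 0 of 12678 genes in each (173 in KO1 and 309 in KO2 at an unadjusted p under 0.05). With the term, 8.85% of all tested genes in KO1 and 19.4% in KO2 were at such a p. The counts at an unadjusted p below stand beside these shares. At an adjusted p under 0.05, edgeR called 0.678% of all tested genes higher and 0.347% lower in KO1. In KO2 it called 2.15% higher and 2.47% lower. Of 14 genes that link keratin filaments to desmosomes or bind them, 12 were tested. SFN (stratifin, a 14-3-3 protein that binds KRT17 in epithelia) was the 1 called in KO1, where it rose 1.53-fold (log2 0.62 ± 0.12, adjusted p = 0.0407, edgeR), and 0 were called in KO2, with 2 at an unadjusted p under 0.05. SFN stood at 149 and 348 CPM in WT, at 214 and 571 in KO1, and at 179 and 498 in KO2. Its call was lost without the HCT116-set WT library (log2 0.51) or either KO1 library (log2 0.65 without the HCT set and 0.57 without the HCT116 set), and a KO2 call appeared without the HCT-set KO2 library (log2 0.47). Over the 12 genes the median log2 value was 0.06 in KO1 and 0.12 in KO2.

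Among 9 tested genes of other intermediate filaments, VIM (vimentin, the filament of mesenchymal cells) fell 2.38-fold in KO1 (log2 -1.25 ± 0.23, adjusted p = 0.0272, edgeR). It stood at 10.7 and 12.3 CPM in WT, at 4.56 and 5.10 in KO1, and at 14.3 and 23.2 in KO2, so KO1 lay below and KO2 above both WT libraries. In KO2 0 of the 9 were called, with 2 at an unadjusted p under 0.05. The VIM call was lost without the HCT-set WT library (log2 -1.11) or either KO1 library (-1.41 without the HCT set and -1.11 without the HCT116 set), and VIM was called higher in KO2 without the HCT-set KO2 library (log2 0.92). The median over the 9 was -0.16 in KO1 and -0.23 in KO2.

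Of 29 genes of the cornified envelope and late squamous differentiation, 9 were tested. In KO1 0 were called, with 3 at an unadjusted p under 0.05. In KO2 KLK5, a protease of epidermal shedding, rose 5.28-fold (log2 2.40 ± 0.37, adjusted p = 0.00414, edgeR), from 0.781 and 2.60 CPM in WT to 7.17 and 9.12. CSTA, the protease inhibitor cystatin A, rose 2.55-fold in KO2 (log2 1.35 ± 0.31, adjusted p = 0.0313, edgeR), from 2.15 and 5.58 CPM to 8.11 and 10.1. The CSTA call was lost without the HCT-set WT library (log2 1.0) or the HCT-set KO2 library (log2 0.92), and KLK5 was at 3.06 without the HCT116-set WT library. Medians over the 9 genes were 0.17 in KO1 and 0.13 in KO2.

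Of 16 transcription factors and regulators of stratified epithelium, 11 were tested. By edgeR 4 were at an unadjusted p under 0.05 in KO1 and 5 in KO2. TRIM29, a regulator expressed in squamous epithelium, rose 5.25-fold in KO1 (log2 2.39 ± 0.38, adjusted p = 0.0119, edgeR) and 3.57-fold in KO2 (log2 1.84 ± 0.38, adjusted p = 0.0208, edgeR). It stood at 1.76 and 0.944 CPM in WT, at 5.90 and 8.97 in KO1, and at 4.45 and 5.60 in KO2. Both calls were lost without the HCT116-set WT library (log2 1.82 in KO1 and 1.27 in KO2), and without the HCT-set WT library the values were 3.17 and 2.63. TFAP2A, an AP-2 factor of the epidermis, rose 3.20-fold in KO2 (log2 1.68 ± 0.21, adjusted p = 0.00114, edgeR), from 20.5 and 14.5 CPM in WT to 54.6 and 55.1, and was at 13.1 and 6.72 in KO1. KLF4, a factor of terminal differentiation in skin and gut, fell 2.82-fold in KO2 (log2 -1.49 ± 0.28, adjusted p = 0.0125, edgeR), from 43.3 and 18.5 CPM to 9.63 and 10.6, and was at 80.5 and 35.1 in KO1. Without the HCT-set KO2 library the KLF4 value was -0.82, and without the HCT116-set KO2 library -2.16. In KO1 neither TFAP2A (log2 -0.84, adjusted p = 0.134) nor KLF4 (log2 0.90, adjusted p = 0.173) passed in edgeR. Both passed when either KO2 library was left out (TFAP2A -0.84 and -0.86, KLF4 0.91 and 0.89), and KLF4 also without the HCT-set WT library (1.26) or the HCT116-set KO1 library (1.16). TP63, the master regulator of stratified epithelium, had at most 3 reads in each library. The list's median was 0.04 in KO1 and -0.23 in KO2.

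Of 15 factors of simple and intestinal epithelium, 12 were tested. By edgeR 6 were at an unadjusted p under 0.05 in KO1 and 3 in KO2. HNF4A, a nuclear receptor of gut and liver epithelium, rose 2.14-fold in KO1 (log2 1.10 ± 0.23, adjusted p = 0.0499, edgeR), from 6.44 and 5.03 CPM to 14.5 and 10.2. The KO1 call was lost whichever 1 library of WT or KO1 was left out, with log2 values between 0.94 and 1.22. HNF4A was called in KO2 without the HCT-set KO2 library (log2 0.90). The list's median was 0.01 in KO1 and 0.16 in KO2.

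Markers of squamous cells other than keratins were read beside the stratified keratins. Of 9 listed, 7 were in both tables and 3 were tested (COL17A1, FAT2 and SERPINB5). By edgeR 0 were called in KO1 (2 at an unadjusted p under 0.05) and 0 in KO2 (3 at such a p). Of all tested genes 8.85% in KO1 and 19.4% in KO2 were at such a p. In KO2 the 3 differed in direction, with 2 above WT and 1 below in the fit. The list summed to 65.4 and 35.9 CPM in WT, to 85.0 and 81.4 in KO1, and to 76.0 and 58.5 in KO2. Most of this sum was SERPINB5 in each library, so it does not show the level of the list as a whole. COL17A1, a hemidesmosome protein of basal cells, was at 4.17 and 3.70 CPM in WT, at 7.04 and 14.9 in KO1, and at 8.06 and 8.02 in KO2. FAT2 went the other way in KO2. It was at 3.51 and 1.34 CPM in WT, at 4.69 and 2.71 in KO1, and at 1.62 and 0.622 in KO2. The desmosomal cadherins DSG1 and DSG3 had at most 3 reads in each library. The part of any change in cell makeup in the keratin levels was not tested.

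The genes nearest to KRT13 and to KRT5 in pattern were sought among 11399 tested genes, by Euclidean distance over the 4 log2 ratios to WT. Nearest to KRT13 were ALPP (distance 2.17), ALPG (2.23) and TRIM29 (2.40), the first pair being near-identical placental-type alkaline phosphatases. ALPP had log2 ratios of 2.45 and 3.92 in KO1 but 0.65 and 0.67 in KO2, where KRT13 had 1.85 and 2.03. Nearest to KRT5 were APOBEC3G (1.40), OAS1 (1.90) and PARP10 (2.18), which are interferon-responsive genes. APOBEC3G had log2 ratios of 0.79 and 1.38 in KO1 and 3.66 and 3.64 in KO2, where KRT5 had 0.81, 2.74, 3.41 and 3.84. These are likenesses of pattern over 4 ratios that share WT libraries.

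For 3 of the 10 keratins (KRT5, KRT8 and KRT20) a promoter window was at hand, from 250 bases before to 50 after an annotated start (RefSeq, GRCh38.p14). Other starts of these genes were not looked at. Whether the transcripts counted here begin at these starts was not tested. KRT5, a low type II keratin that differed most in KO2, and KRT8, the abundant type II keratin, are shown to set the 2 side by side. Capitals mark an ATAAAA match. KRT8 lies at chr12:52926420-52926719 and KRT5 at chr12:52520345-52520644, both on the minus strand.
KRT8: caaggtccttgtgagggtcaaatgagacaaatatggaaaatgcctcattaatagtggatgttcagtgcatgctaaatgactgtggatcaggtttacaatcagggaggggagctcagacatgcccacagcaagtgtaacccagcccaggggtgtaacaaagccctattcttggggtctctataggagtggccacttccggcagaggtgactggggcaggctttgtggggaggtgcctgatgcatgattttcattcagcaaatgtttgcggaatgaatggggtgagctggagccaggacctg
KRT5: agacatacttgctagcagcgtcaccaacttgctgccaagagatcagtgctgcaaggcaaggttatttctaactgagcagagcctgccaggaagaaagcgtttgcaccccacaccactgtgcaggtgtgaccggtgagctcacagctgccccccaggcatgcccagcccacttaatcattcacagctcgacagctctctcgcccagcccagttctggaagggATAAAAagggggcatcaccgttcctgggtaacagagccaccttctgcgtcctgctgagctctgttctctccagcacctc

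Of 4 short motifs searched on both strands after the sequences had been seen, KRT5 held 1 match to ATAAAA, beginning 29 bases before the start, KRT8 held 0, and KRT20, not shown, held 3. ATAAAA, as in TATA boxes, occurs in 16.0% of 35116 promoter windows of the same length. TGANTCA, the AP-1 core (7.71% of windows), GGGCGG, a GC box (45.0%), and GCCNNNGGC, the AP-2 core (23.2%), had 0 matches in all 3. GGGCGG and GCCNNNGGC can overlap each other. That TFAP2A encodes an AP-2 factor and no GCCNNNGGC stands in the KRT5 window says only that these letters are not in these 300 bases.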

How the data were processed

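Poly(A) RNA of 6 HCT116 libraries was sequenced, in 3 groups of 2. The deposited tables hold read counts per gene and library, not normalized by the authors, per the file headers. STAR, HTSeq 0.6.0, DESeq2 and hg18 stand in the submitters' processing notes, with no role given, and strand use in counting is not stated there. The 2 tables were joined on gene symbol (15284 shared genes, with 264 in KO1 only and 429 in KO2 only left out). Another 40 columns of per-sample values, such as FPKM, were not used: the column names give no replicate number, so 1 measure per library was taken. Levels between genes, planned on FPKM, are therefore CPM per kilobase of merged exons (GENCODE).

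Counts were tested in edgeR 4.0.16 (R 4.3.3) with TMM scaling. Low genes were removed with filterByExpr (by group, minimum 10 counts). The quasi-likelihood functions glmQLFit and glmQLFTest took all 6 libraries, and p-values of 12678 genes were adjusted by Benjamini-Hochberg (threshold 0.05). The HCT or HCT116 prefix of the library name was a block, leaving 2 residual degrees of freedom. It pairs the libraries: deviations from the group means correlated at 0.918 (WT with KO1), 0.864 (WT with KO2) and 0.830 (KO1 with KO2). The labels' replicate numbers could not be matched to columns. The SE is the size of the log2 fold change over the square root of F. CPM use TMM-scaled library sizes, and ratios within a set a prior count of 2. Tested on simulated data for KO1 against WT (12678 genes), the fit recovered 85% of 200 genes changed 2-fold, with 8 false calls. The simulation gave all genes 1 common spread and the same fold in both sets, so this share may not hold for the real libraries. Libraries of a group were not copies (chi-square per degree of freedom at least 94.7). Windows of 50 bases shared between genes came from GENCODE transcripts.

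The keratins and lists were chosen with earlier results of these data known. Named are all 10 keratins, from each list the genes called against WT (up to 4 per comparison; 1 such gene is not reported here), the 3 genes nearest in pattern to KRT13 and to KRT5, and other keratins with at least 10 reads in some library. COL17A1, FAT2, DSG1, DSG3 and the flanking genes were named after their values were seen. Alternatives were a fit without the block, DESeq2 1.42.0, DESeq2 size factors, no filter, each library left out, a prior count of 0.5 and, chosen after seeing the data, the longest transcript as length.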

Additional observations from a re-analysis of the deposited data

Results flagged for a closer look

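KRT7 and KRT80 are listed because both KO1 libraries lay above, and both KO2 libraries below, the WT library of their set. The log2 fold change of KO2 against KO1 was -4.57 for KRT7 and -2.31 for KRT80. Both genes were chosen with these values in view, so the difference between the guides is a description, and nothing is read from its edgeR calls.

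KRT8, KRT18 and KRT19 are listed because their KO2 ratio to WT was below 0 in the HCT set and above 0 in the HCT116 set. The HCT116-set log2 ratio minus the HCT-set ratio was 0.4 for KRT8, 0.4 for KRT18 and 0.6 for KRT19. With 1 library per guide and set this difference was not tested.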

How the results depend on the processing

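Without the replicate block edgeR called 0 genes, and so 0 keratins and 0 listed genes, in each knockout comparison (unadjusted p under 0.05: 173, 309 and 513 genes). With it the calls were 130 for KO1 and 585 for KO2, each against WT, and 1220 between the guides. The comparison of the sets kept 2 keratins of 7. DESeq2 called 205 genes, 7 keratins and 8 listed genes in KO1 against WT. Its calls there included KRT8, KRT18 and KRT19, and it did not call KRT13 in KO2. With no filter the KO1 counts were 316 genes, 8 keratins and 15 listed genes, and in KO2 949 genes and 13 listed genes. With 1 library left out, KO1 calls ran from 69 to 901 genes, 4 to 8 keratins and 2 to 26 listed genes, with 8 keratins whichever KO2 library was left out. KO2 calls ran from 317 to 2170 genes, 4 to 5 keratins and 5 to 22 listed genes, and KO2 against KO1 from 391 to 3202 genes and 4 to 7 keratins, with 4 whichever KO1 library was left out. The highest gene counts of the 3 knockout comparisons came without a KO2 library. The comparison of the sets ran from 6481 to 8754 genes and 6 to 8 keratins. The lone library left in a group is assumed there to vary like the others. The cause of these changes was not tested. KRT15 lost its KO1 call without the HCT-set KO1 library. A prior count of 0.5 took the KO2 log2 ratios of KRT5 to 3.74 and 4.18 and that of KRT17 in the HCT set to 3.38, and the KO1 ratios of KRT17 to 2.14 and 2.15. No keratin's called value changed sign in any alternative. In the knockout comparisons the keratins were picked on these same values, so nothing is read there from their calls or signs. Depth limits KRT5 and KRT17, which had at most 5 reads in a WT library.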

Other observations

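The genes that anchor keratin filaments were also compared between the sets. Of 12 tested, 5 were higher and 6 lower in the HCT116 set by edgeR's quasi-likelihood test, with a median log2 fold change of -0.26. Of all tested genes 31.8% were called higher and 32.1% lower, so nothing is read from this split. Desmoplakin (DSP), which ties keratin to desmosomes, was lower (log2 -1.03 ± 0.11, adjusted p = 1.45e-05, edgeR), at 351, 319 and 287 CPM in the HCT set of WT, KO1 and KO2 and 151, 155 and 162 in the HCT116 set. The linker epiplakin (EPPK1) was lower too (log2 -1.34 ± 0.13, adjusted p = 1.02e-05, edgeR), as was the desmosomal plaque protein PKP2 (log2 -1.01 ± 0.14, adjusted p = 7.39e-05, edgeR). Its relative PKP3 was higher (log2 0.99 ± 0.10, adjusted p = 1.04e-05, edgeR), and so was the linker plectin, PLEC (log2 0.50 ± 0.11, adjusted p = 0.0024, edgeR). The nuclear lamins LMNA (log2 0.93 ± 0.11, adjusted p = 3.15e-05, edgeR) and LMNB2 (log2 0.95 ± 0.13, adjusted p = 9.97e-05, edgeR) were higher in the HCT116 set. These genes were picked from their lists after their values were seen, and 63.9% of all tested genes were called in this comparison.

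KLK10 and S100A2, of the cornified envelope list, shared with KRT13 a high level in the HCT116-set KO1 library. KLK10, an epithelial protease, was at 118 CPM there and between 19.6 and 46.7 in the other libraries, and S100A2, a calcium-binding protein of basal epithelium, at 58.6 and between 3.12 and 23.0. Neither was called in KO1 against WT by edgeR (log2 1.29 and 1.27), and both were named after their values were seen.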
